A study of Mus musculus with 11 samples.

Results

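The nuclear genes for subunits of the mitochondrial respiratory chain and of ATP synthase were followed across 11 libraries of mouse knee cartilage. Members were chosen by name: protein-coding genes of the mouse build GRCm38 whose symbols begin with Nduf followed by a, b, c, s or v, with Uqcr, with Cox4 to Cox8 or with Atp5, and the gene Cyc1. Assembly factors named Ndufaf (8 genes), pseudogene names ending in -ps (9 genes) and 4 other genes that are not protein-coding were left out. This gave 83 gene identifiers under 82 symbols, of 55421 genes in the count tables: 38 of complex I, 9 of complex III, 18 of complex IV and 18 of complex V. The rule uses no measured value, but the members were chosen with earlier results of these data known. Of the 83 identifiers, 80 had enough counts to be tested. The other 3 were Cox7b2 with 0 counts in all libraries, Cox8c with 1 count in a single library, and a second identifier named Atp5o with 0 counts, which lies on the first Atp5o and on Donson. A count of 0 allows up to 3 counts in a library.

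The respiratory chain passes electrons from NADH through complex I, complex III and cytochrome c to complex IV, which reduces oxygen, and pumps protons across the inner mitochondrial membrane. ATP synthase, counted as complex V, uses that gradient to make ATP. Most of its proteins come from nuclear genes and a smaller set from mitochondrial DNA, and both have to be assembled together. Articular chondrocytes live in avascular, poorly oxygenated tissue and are known to rely mainly on glycolysis, while skeletal muscle is rich in respiratory chains and uses its own isoforms of some complex IV subunits.

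All animals were C57BL/6 mice, 14 weeks old, sampled 4 weeks after the medial meniscus was destabilized (DMM), surgery that frees a knee meniscus and serves to model osteoarthritis. Contralateral, unoperated knees of mice labelled c-FosWT gave 4 libraries, their DMM knees gave 3, and DMM knees of mice labelled c-FosDCh gave 4. The label c-FosDCh is read here as loss of the transcription factor gene Fos in chondrocytes; the driver of the deletion is not given in the sources used here, and no contralateral c-FosDCh knee was analysed. Each c-FosWT DMM library shares its animal with 1 contralateral library, and every other library comes from an animal of its own.

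Gene counts per library ranged from 13593454 to 18280558, and the members held 0.24 to 0.414% of them. Levels are given as CPM, gene counts scaled to a common library total with TMM factors, a scaling which evens out differences in composition between libraries. The level of Fos did not check the genotype labels: c-FosWT DMM replicates 1 to 3 had 12.1, 14.1 and 9.01 CPM, and replicates 1 to 4 labelled c-FosDCh DMM had 19.4, 10.9, 29.5 and 33.0 CPM. That is a log2 fold change of 0.98 ± 0.35 (edgeR, adjusted p = 0.0736), not lower in the libraries labelled as the deletion, and every direction given for that label below rests on the label alone. The cartilage genes Acan (474 to 9679 CPM), Col2a1 (2329 to 12288 CPM) and Sox9 (21.6 to 393 CPM) were present in all libraries. Markers of other tissues were present as well and moved with the groups. The marrow score averages the log2 CPM of 33 genes of erythroid cells and granulocytes, and was 6.16 to 7.82 in contralateral, 7.71 to 8.49 in c-FosWT DMM and 3.61 to 7.20 in c-FosDCh DMM libraries, with the lowest values in c-FosDCh DMM replicates 4 (3.61) and 3 (5.79). The skeletal muscle score was 7.81 in contralateral replicate 2, 8.54 in c-FosWT DMM replicate 1, 5.73 in c-FosDCh DMM replicate 2 and 1.65 to 4.60 in the other libraries. In such bulk samples, fewer cells of a type and less RNA per cell cannot be told apart.

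Promoter windows of 4 members are printed first because these genes carry the results below: Atp5b, Ndufa10 and Uqcrfs1 differed between the DMM groups, and Cox8b is a muscle form. The windows are from RefSeq (build GRCm38.p6), 250 bases before to 50 bases after the annotated start, 5′ to 3′ on the gene's strand; the annotation holds such a window for 64 of the 82 member symbols. Capitals mark the motif named for each gene, searched on both strands. For Atp5b (chr10:128083057-128083356, + strand) they mark 5 matches of the CCAAT box, the letters CCAAT. For Ndufa10 (chr1:92473709-92474008, - strand) they mark 2 overlapping matches of an ETS site, the letters CCGGAA, which is the core bound by ETS factors such as GABPA. In the window of Uqcrfs1 (chr13:30545267-30545566, - strand) they mark 1 cAMP response element, the letters TGACGTCA. In the window of Cox8b (chr7:140900397-140900696, - strand) they mark 2 E-boxes, the letters CANNTG, a motif bound by myogenic factors.
Atp5b: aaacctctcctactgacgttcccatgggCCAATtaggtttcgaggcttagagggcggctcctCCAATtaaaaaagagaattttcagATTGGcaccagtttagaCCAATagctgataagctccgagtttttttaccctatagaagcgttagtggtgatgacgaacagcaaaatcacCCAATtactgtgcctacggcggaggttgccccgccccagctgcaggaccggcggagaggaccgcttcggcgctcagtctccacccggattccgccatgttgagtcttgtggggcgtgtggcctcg
Ndufa10: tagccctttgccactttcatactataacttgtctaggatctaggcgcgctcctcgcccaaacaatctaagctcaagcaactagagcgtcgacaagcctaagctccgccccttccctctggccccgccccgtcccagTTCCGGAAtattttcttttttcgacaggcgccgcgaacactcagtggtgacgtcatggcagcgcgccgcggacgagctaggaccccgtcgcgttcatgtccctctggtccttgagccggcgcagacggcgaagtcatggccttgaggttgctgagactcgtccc
Uqcrfs1: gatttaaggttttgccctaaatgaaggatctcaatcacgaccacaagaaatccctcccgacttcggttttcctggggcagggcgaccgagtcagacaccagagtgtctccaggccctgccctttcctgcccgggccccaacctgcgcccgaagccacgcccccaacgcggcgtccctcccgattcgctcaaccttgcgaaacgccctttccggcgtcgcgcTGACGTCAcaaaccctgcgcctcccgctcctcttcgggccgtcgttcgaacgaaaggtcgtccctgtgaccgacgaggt
Cox8b: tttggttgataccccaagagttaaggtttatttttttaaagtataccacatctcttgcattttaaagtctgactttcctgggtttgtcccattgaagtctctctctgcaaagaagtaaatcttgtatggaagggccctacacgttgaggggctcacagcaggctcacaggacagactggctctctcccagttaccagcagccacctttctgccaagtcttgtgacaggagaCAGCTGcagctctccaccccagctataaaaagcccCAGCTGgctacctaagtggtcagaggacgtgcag

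Across members, 24 of 69 windows (34.8%) held the ETS letters, against 14.9% of all 32851 windows of the same length. The letters GCGCA and GCGC with any 1 base between them, a site of the respiratory factor NRF1, were in 16 member windows (23.2%) and in 4.6% of all windows. The remaining motifs were at shares closer to those of all windows: the GC box GGGCGG in 37.7% against 35.7%, CCAAT in 40.6% against 37.4%, TATAAA in 11.6% against 13.6%, the E-box in 69.6% against 72.3%, and ACGTG, the core of a hypoxia response element, in 23.2% against 19.6%. TGACGTCA was in 4 member windows (5.8%), those of Ndufa10, Ndufa11, Ndufb2 and Uqcrfs1, and in 1.8% of all. Ndufa4l2 and Cox4i2 have no window in the annotation and enter none of these shares. Some genes have more than 1 window, and a match of letters is a description only.

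In the contralateral knee, levels of the members spanned a wide range. Per kb of exon, which is the scale on which genes can be compared, the highest of complex I were Ndufa4l2 (172 ± 64.1 CPM per kb, SD, n = 4) and Ndufa2 (63.2 ± 2.35). Ndufa4l2 is a hypoxia-induced relative of Ndufa4 that is known to restrain respiration, and Ndufa2 is an accessory subunit of the matrix arm. For complex III the highest were Uqcr10 (53.2 ± 1.34) and the hinge protein gene Uqcrh (38.6 ± 0.72). For complex IV they were Cox6b1 (89.2 ± 1.93) and Cox4i1 (89.0 ± 2.79), the common forms of subunits VIb and IV. On this length these 2 did not differ beyond their spread. For complex V the highest were Atp5a1 (94.5 ± 2.68) and Atp5b (86.6 ± 5.33), the alpha and beta subunits that form the catalytic head. The order depends on the transcript length used: per kb of the principal transcript, Atp5b stood at 191, Cox4i1 at 180, Atp5e at 137 and Atp5a1 at 119.87 CPM per kb. There Cox6b1 (102 ± 2.21) lay under Cox4i1 (180 ± 5.65) by more than their spread. The lowest tested members per kb of exon were Atp5l (1.98 ± 0.26), Ndufab1 (2.48 ± 0.29) and Ndufb2 (2.54 ± 0.22). This order depends on length too: per kb of the principal transcript, Atp5l stood at 23.5, Ndufab1 at 4.91 and Ndufb2 at 3.27. On that length Atp5s was the lowest, at 3.25 CPM per kb. In the Atp5l transcript 76.0% of stretches of 75 bases, the read length, also occur in other annotated genes. Multimapping reads stayed out of gene counts, so the level of Atp5l may be too low. Of the summed level per kb, complex I held 40.0 ± 2.10%, complex III 12.4 ± 0.73%, complex IV 26.0 ± 0.49% and complex V 21.6 ± 1.04% in the contralateral knee. The share of complex I includes Ndufa4l2: the sum for complex I was 839 ± 54.0 CPM per kb with this gene and 667 ± 11.8 without it.

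The common members varied little between contralateral libraries. For the 74 members other than the 6 tissue isoforms with a count, the SD over the 4 libraries was 8.2% of the mean at the median, from 1.19% for Ndufv2, which carries an iron-sulfur cluster next to the NADH site, to 19.6% for Cox6c. The same median was 15.9% over the 3 c-FosWT DMM libraries and 16.3% over the 4 c-FosDCh DMM libraries. The 6 tissue isoforms (Cox6a2, Cox7a1, Cox8b, Cox4i2, Ndufa4l2 and Cox6b2) varied by 32.2 to 167% of the mean in the contralateral group. Among core genes, Cyc1, which encodes cytochrome c1, was at 45.7, 52.5, 41.0 and 44.2 CPM in contralateral, 56.3, 45.0 and 61.1 CPM in c-FosWT DMM and 51.2, 42.4, 31.8 and 37.6 CPM in c-FosDCh DMM libraries. Ndufs1, the large iron-sulfur subunit of complex I, was at 69.4, 79.97, 59.1 and 68.8 CPM, then 94.5, 78.0 and 81.7 CPM, then 68.3, 78.1, 69.6 and 69.2 CPM in the same order. For both genes the groups overlapped in every comparison.

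**Figure D1:**
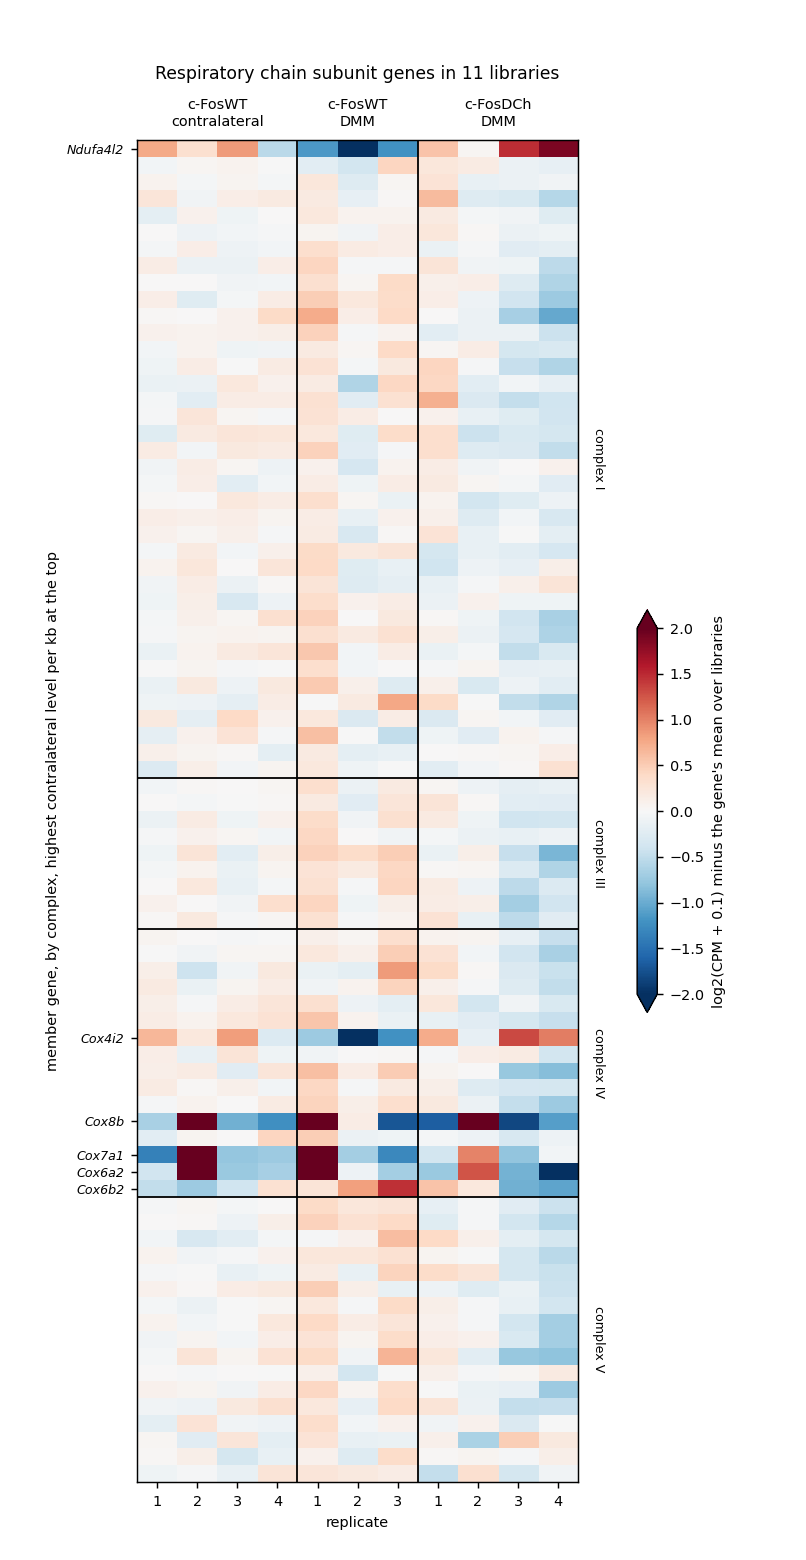
Each row is 1 of the 80 tested members, ordered by complex and by contralateral level per kb, with the 6 tissue isoforms labelled, and each column is 1 library; colour is log2(CPM + 0.1) minus the gene's mean over the libraries (red higher, blue lower, limits at -2 and 2). Most rows are pale, with c-FosWT DMM replicate 1 slightly red and c-FosDCh DMM replicates 3 and 4 slightly blue, while Ndufa4l2, Cox4i2 and the muscle forms Cox8b, Cox7a1 and Cox6a2 stand out.

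The first comparison asked what the operation did to these genes in c-FosWT knees. No member passed in DMM against contralateral libraries: 0 of 80 by edgeR at an adjusted p under 0.05, against 0% of 18125 genes tested. Limma-voom also called 0 members and 0% of all genes. DESeq2 called 825 of 33671 genes (2.45%), a base that includes the low-count genes left out of the 18125, and 4 of the members. The 4 were Atp5a1 and Atp5b higher and Ndufa4l2 and Cox4i2 lower. At an unadjusted p under 0.05 there were 8 members (10%, against 19.9% of all genes). Most fold changes were positive: 64 of 80 were positive (80%, against 49.1% of all genes) and their median was 0.12, where that of all genes was -0.01; 16 were negative (20%, against 50.9%). This rests in part on c-FosWT DMM replicate 1, the library of highest muscle score: without it 49 of 80 were positive and the median was 0.06, while without c-FosWT DMM replicate 2 they were 75 and 0.23. By complex, the medians were 0.10 for I, 0.14 for III, 0.20 for IV and 0.22 for V. All 9 members of complex III and 16 of 17 of complex V were positive, Atp5j being the exception.

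The 5 members of smallest p in this comparison were Cox4i2, Ndufa4l2, Cox6b2, Atp5b and Atp5a1, and none passed. Cox4i2, the form of subunit IV known for its response to low oxygen, was at 25.8, 18.8, 29.05 and 13.5 CPM in contralateral libraries 1 to 4 and at 9.84, 2.98 and 7.01 CPM in c-FosWT DMM libraries 1 to 3. All DMM values lay under all contralateral values, with a log2 fold change of -1.72 ± 0.46 (edgeR adjusted p = 0.182). Ndufa4l2 was at 235, 174, 249.8 and 95.5 CPM in contralateral and at 62.3, 17.1 and 60.1 CPM in DMM libraries, again without overlap, with a log2 fold change of -2.02 ± 0.57 (edgeR adjusted p = 0.182). In each of the 3 animals that gave both knees, both genes were lower in the DMM knee: by log2 differences of -1.38, -2.61 and -0.93 for Cox4i2 and -1.91, -3.34 and -0.67 for Ndufa4l2. Cox6b2, a form of subunit VIb best known from testis, was low throughout, at 2.63, 2.21, 2.80 and 4.63 CPM in contralateral and 4.51, 6.70 and 10.5 CPM in DMM libraries, which overlapped slightly (log2 fold change 1.23 ± 0.45, edgeR adjusted p = 0.197).

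Atp5b was at 366, 371, 338 and 393 CPM in contralateral and at 498, 451 and 476 CPM in DMM libraries. Atp5a1 was at 291, 306, 287 and 300.02 CPM and at 387, 348 and 354 CPM. Neither gene overlapped between the groups, and the log2 fold changes were 0.37 ± 0.14 and 0.29 ± 0.11 (edgeR adjusted p = 0.197 and 0.206). In all, 11 members lay higher in every DMM library than in every contralateral one (13.8%, against 10.1% of all genes): these 2, Atp5g3, Atp5h, Cox4i1, Ndufa10, Ndufa3, Ndufb8, Ndufb9, Uqcrc1 and Uqcrfs1. Only Cox4i2 and Ndufa4l2 lay lower in every DMM library (2.5%, against 13.1% of all genes). Within the 3 animals, the median difference of the members between DMM and contralateral knee was 0.33, -0.09 and 0.13 log2 units, so 1 of the 3 went the other way. The marrow score was higher in the DMM knee of each animal, by 0.80, 1.83 and 0.67, and the muscle score differed by 4.70, -3.22 and -0.86; their part in these differences was not tested.

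**Figure D2:**
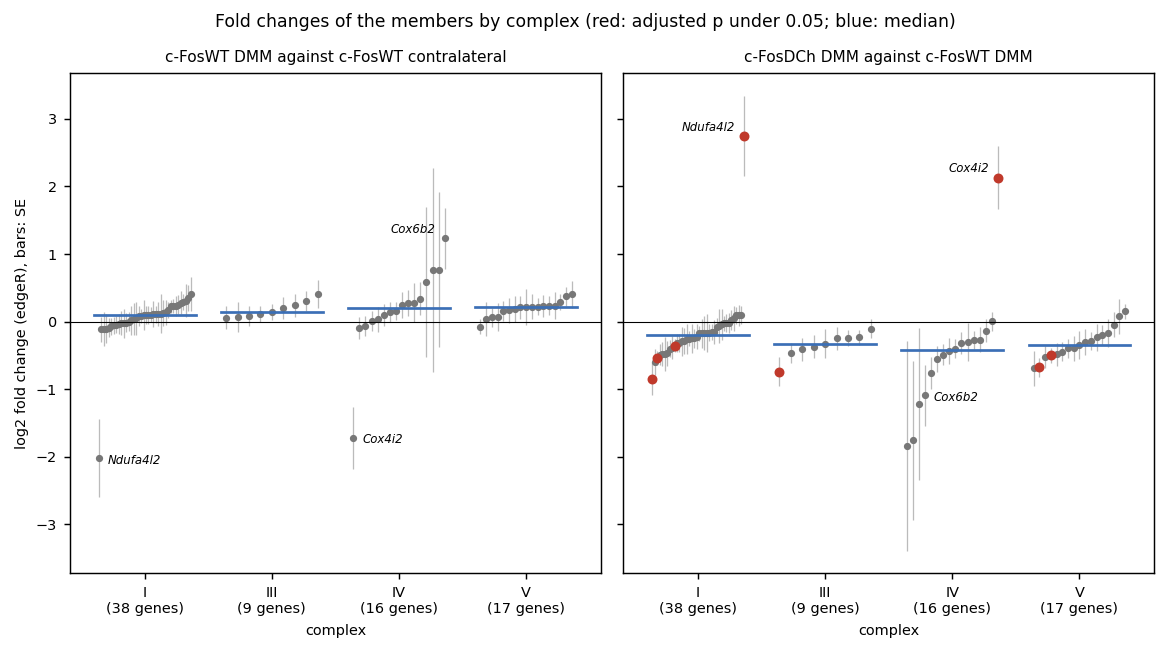
Points are the members' log2 fold changes from edgeR with bars of 1 SE, ordered by size within each complex (horizontal axis); the blue line is the median of the complex and red points have an adjusted p under 0.05. On the left (c-FosWT DMM against contralateral) no point is red and the medians lie between 0.10 and 0.22. On the right (c-FosDCh DMM against c-FosWT DMM) 8 points are red and the medians lie between -0.20 and -0.41.

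The second comparison asked how the label c-FosDCh differs from c-FosWT among DMM knees. Of the 80 members, 8 passed (10%, against 14.4% of all genes tested), 2 higher and 6 lower in the libraries labelled c-FosDCh. The 2 higher ones were Ndufa4l2 and Cox4i2 (2.5%, against 10.6% of all genes called higher). The other 6 were lower (7.5%, against 3.79% of all genes called lower), among them Ndufa10, Atp5b, Atp5a1, Uqcrfs1 and Ndufa4. By complex, 4 of 38 passed in I, 1 of 9 in III, 1 of 16 in IV and 2 of 17 in V. Negative fold changes were found for 70 of 80 members (87.5%, against 50.5% of all genes) and positive ones for 10 (12.5%, against 49.5%), with a median of -0.29 where that of all genes was -0.01. Without c-FosDCh DMM replicates 3 and 4, 63 of 80 were negative and the median was -0.17. The medians were -0.20 for complex I, -0.33 for III, -0.41 for IV and -0.34 for V. At an unadjusted p under 0.05 there were 30 members (37.5%, against 39% of all genes).

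The calls of this comparison rest on few libraries, for the members as for all genes. With 1 library left out, the count of members fell to 0 for any of contralateral replicates 1 and 2, c-FosWT DMM replicates 2 and 3, and c-FosDCh DMM replicates 3 and 4. In these settings the count over all genes fell to 0 as well, or to 1 without contralateral replicate 2. It was 5 of 80 members without contralateral replicate 3 (7.56% of all genes) or c-FosWT DMM replicate 1 (11.5% of all genes) and 8 without contralateral replicate 4 (14.5% of all genes). Leaving out replicate 1 labelled c-FosDCh DMM gave 31 of 80 members and 24.6% of all genes, and leaving out its replicate 2 gave 16 of 80 members and 25.8% of all genes. DESeq2 called 23 of 80 members and 5259 of 33671 genes (15.6%). Its base includes the low-count genes left out of the 18125, so the 15.6% cannot be set beside the share of members. Limma-voom called 14 of 80 members and 17.8% of all genes, with or without a block for the shared animal. With library totals in place of TMM, 10 of 80 members and 11.9% of all genes were called, the median of all genes moved to -0.18, that of the members to -0.44, and 54.5% instead of 73.7% of all called genes were higher.

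Ndufa4l2 (chromosome 10, 127514967 to 127517154, + strand, GRCm38) had the largest difference of the members called. It was at 62.3, 17.1 and 60.1 CPM in c-FosWT DMM and at 206, 142, 387 and 511 CPM in replicates 1 to 4 labelled c-FosDCh DMM. The groups did not overlap, and c-FosDCh replicates 3 and 4 were also above all 4 contralateral values. The log2 fold change was 2.75 ± 0.59 (edgeR adjusted p = 0.0332). Cox4i2 (chromosome 2, 152754173 to 152765037, + strand) followed the same pattern, with 9.84, 2.98 and 7.01 CPM in c-FosWT DMM and 27.4, 14.5, 40.6 and 33.3 CPM in c-FosDCh DMM libraries. Its groups did not overlap either, and the log2 fold change was 2.13 ± 0.46 (edgeR adjusted p = 0.0332). Both genes are known to respond to low oxygen, and a list of 18 other hypoxia target genes, which holds neither of them, moved in the same libraries. Of that list 11 were higher and 0 lower between the DMM groups, read as c-FosDCh against c-FosWT (edgeR, adjusted p under 0.05), with a median log2 fold change of 1.34. Among them were the glucose transporter gene Slc2a1 (2.44 ± 0.53), the prolyl hydroxylase gene Egln3 (2.34 ± 0.53) and Pdk1 (1.24 ± 0.33), whose kinase limits entry of pyruvate into mitochondria. The mean log2 CPM of the list was 5.48, 4.74 and 5.02 in c-FosWT DMM and 5.91, 5.68, 6.38 and 6.86 in c-FosDCh DMM libraries. The part of this mean and that of the genotype label cannot be told apart, because the mean did not overlap between these groups. With it as a covariate, 0 of all 18125 genes passed, the members among them, the genes at an unadjusted p under 0.05 went from 7074 to 667, and the log2 fold change of Ndufa4l2 was 0.65. Of 22 cartilage genes 9 were called higher (against 10.6% of all genes) and 0 lower, with 17 fold changes positive and 5 negative. Of 15 erythroid genes 6 were called lower (against 3.79% of all genes), and all 15 were negative. All tested genes were also negative in the lists of skeletal muscle (20), granulocytes (18) and cell cycle (17). The same held for B cells, macrophages, adipocytes and endothelium (10 each). Of osteoclast genes 9 of 10 were negative, and of osteoblast and osteocyte genes 6 of 12. The part of these lists in the result was not tested.

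The lower members changed by less. Atp5b was at 498, 451 and 476 CPM in c-FosWT DMM and at 308, 356, 282 and 244 CPM in c-FosDCh DMM libraries, with a log2 fold change of -0.67 ± 0.14 (edgeR adjusted p = 0.0332). Atp5a1 was at 387, 348 and 354 CPM against 264, 291, 254 and 221 CPM, with -0.50 ± 0.11 (edgeR adjusted p = 0.0332). For both subunits of the catalytic head the groups did not overlap, and c-FosDCh replicate 4 was the lowest library of all. Ndufa10, an accessory subunit of the membrane arm of complex I, was at 42.6, 37.4 and 38.9 CPM against 25.6, 29.35, 28.1 and 25.9 CPM, with -0.54 ± 0.10 (edgeR adjusted p = 0.0332). Its 4 c-FosDCh values lay close together and under every other library. Uqcrfs1, the Rieske iron-sulfur protein of complex III, was at 47.9, 44.5 and 48.8 CPM against 31.7, 37.6, 25.02 and 18.3 CPM, with -0.74 ± 0.21 (edgeR adjusted p = 0.0447). Ndufa4, today counted as a subunit of complex IV in spite of its name, was at 48.7, 31.9 and 38.0 CPM against 29.0, 26.7, 18.3 and 14.2 CPM, with -0.84 ± 0.24 (edgeR adjusted p = 0.0449). For Uqcrfs1 and Ndufa4 the spread within c-FosDCh was wide: replicates 3 and 4 lay well under every contralateral value, while replicates 1 and 2 lay within the contralateral range for Uqcrfs1 and just under it for Ndufa4. Exons of Ndufa4l2 overlap Shmt2 and exons of Atp5a1 overlap Haus1, each on the other strand; as the strand setting of the counts is not given in the sources used here, reads of each gene and its antisense partner may be mixed.

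**Figure D3:**
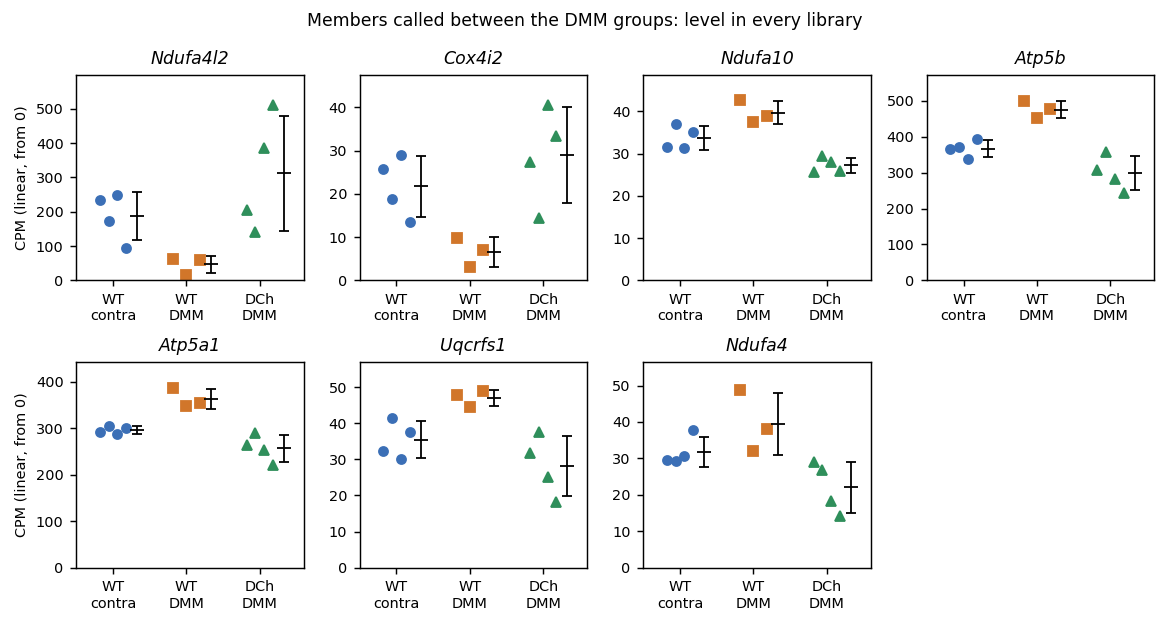
Each panel shows 1 of 7 of the members that passed between the DMM groups, those with a log2 fold change beyond 0.4 in either direction, with its CPM (linear axis from 0) in every library by group; the cross bar and whiskers are the mean and SD of the group. Ndufa4l2 and Cox4i2 are lowest in c-FosWT DMM, while the other 5 have their highest mean there, and the c-FosDCh values of all 7 lie clear of the c-FosWT DMM values.

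Besides these 8, 9 more members did not overlap between the DMM groups while missing the threshold; all were lower in the libraries labelled c-FosDCh. In all, 15 members lay lower in every c-FosDCh than in every c-FosWT DMM library (18.8%, against 15.8% of all genes) and 2 higher (2.5%, against 17.2%). The 9 were Ndufa3, Ndufb8 and Ndufv2 of complex I, Uqcrc1 of complex III, Cox5a and Cox7b of complex IV, and Atp5f1, Atp5g3 and Atp5o of complex V. Uqcrc1, a core protein of complex III, was at 116, 108 and 127 CPM in c-FosWT DMM and at 97.1, 98.7, 79.7 and 63.3 CPM in c-FosDCh DMM libraries. Cox5a, a common subunit of complex IV, was at 65.7, 47.9 and 61.7 CPM against 45.1, 43.8, 25.6 and 24.0 CPM. Ndufv1, the NADH-binding core subunit, overlapped, with 67.4, 61.2 and 78.4 CPM against 61.3, 65.8, 46.5 and 48.0 CPM. Cox7a2l, a factor that joins complexes III and IV into supercomplexes, was level in the DMM groups, at 31.7, 33.3 and 33.8 CPM against 32.6, 36.4, 37.2 and 25.8 CPM.

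The 3 genes Atp5g1, Atp5g2 and Atp5g3 encode the same mature c subunit of the rotor and differ in level. Atp5g3 was the most abundant per kb of exon in the contralateral knee (34.2 ± 1.77 CPM per kb), ahead of Atp5g1 (4.69 ± 0.69) and Atp5g2 (3.73 ± 0.58). On this length the latter 2 were within their spread of each other. Per kb of the principal transcript, Atp5g3 stood at 103, Atp5g1 at 4.89 ± 0.72 and Atp5g2 at 8.55 ± 1.34, so the order of the latter 2 depends on the length used. Between the DMM groups, Atp5g3 was at 86.7, 86.2 and 91.3 CPM against 76.8, 73.5, 57.8 and 50.8 CPM without overlap. Atp5g1, at 29.8, 22.4 and 24.6 CPM against 22.2, 24.8, 19.0 and 23.2 CPM, overlapped, as did Atp5g2 at 7.73, 5.73 and 5.78 CPM against 6.79, 4.07, 8.95 and 7.31 CPM. Of stretches of 75 bases, the read length, 86.9% in the Atp5g2 transcript also occur in other annotated genes, so its counts are uncertain. They may be too low, because multimapping reads stayed out of gene counts, which also makes its level beside Atp5g1 uncertain. The share of such stretches was 76% for Atp5l and 50.4% for Cox7c, and 46 members shared none.

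The third comparison set c-FosDCh DMM against c-FosWT contralateral libraries, 2 groups that differ in both operation and genotype label. No member passed: 0 of 80 by edgeR, limma-voom and DESeq2. Of all genes, 0% passed by edgeR and limma-voom, and 0.11% of 33671, low-count genes included, by DESeq2. At an unadjusted p under 0.05 there were 6 (7.5%, against 8.34% of all genes), and 63 of 80 fold changes were negative (78.8%, against 50.3%) and 17 positive (21.2%, against 49.7%), with a median of -0.17. This rests on c-FosDCh DMM replicates 3 and 4. Without both, 41 of 80 members were negative and 39 positive, with a median of -0.0026. Without replicate 3 alone 56 were negative (median -0.10), without replicate 4 alone 50 (-0.08), and without replicate 1 alone 70 (-0.27). The 5 of smallest p were Cox7b (-0.48 ± 0.14), Ndufa10 (-0.31 ± 0.09), Ndufv2 (-0.30 ± 0.12), Atp5c1 (-0.33 ± 0.13) and Atp5b (-0.30 ± 0.13), each at an edgeR adjusted p of 0.584. Cox7b, a small subunit of complex IV, was at 37.2, 35.1, 38.7 and 40.7 CPM in contralateral and at 30.2, 28.5, 26.1 and 24.3 CPM in c-FosDCh DMM libraries, without overlap. Without overlap, 5 members were lower (6.25%, against 2.12% of all genes): Cox7b, Ndufa10, Ndufv2, Atp5c1 and Ndufa4. None was higher without overlap (0%, against 2.28% of all genes). Ndufa4l2 and Cox4i2 overlapped, with log2 fold changes of 0.73 ± 0.50 and 0.41 ± 0.40 (edgeR adjusted p = 0.637 and 0.704). This comparison and the other 2 share libraries.

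Within groups, single libraries stood apart in the level of the whole set. The median over members of log2 CPM minus the gene's mean was -0.02, 0.05, -0.01 and 0.05 in contralateral libraries 1 to 4. It was 0.30, -0.02 and 0.15 in c-FosWT DMM libraries and 0.10, -0.04, -0.25 and -0.35 in c-FosDCh DMM libraries. Thus c-FosWT DMM replicate 2 and c-FosDCh DMM replicates 1 and 2 lay near the contralateral libraries. In c-FosDCh DMM replicates 3 and 4 the medians by complex were -0.14 and -0.23 for I, -0.40 and -0.27 for III, -0.34 and -0.46 for IV and -0.29 and -0.43 for V, so complex I was nearest to 0 and the order of the others differed between the 2 libraries. These 2 libraries also had the lowest marrow scores, and the library of the highest median, c-FosWT DMM replicate 1, had the highest muscle score. With the marrow score as a covariate, the log2 fold changes between the DMM groups were negative for 59 of 80 members, where the median of all genes was 0.02. With it, 0 of all 18125 genes passed, and 6 of 80 members and 2000 of all genes were at an unadjusted p under 0.05. The score was 7.71 to 8.49 in c-FosWT DMM and 3.61 to 7.20 in c-FosDCh DMM libraries, without overlap. Its part and that of the genotype label therefore cannot be told apart, and the cause was not tested.

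**Figure D4:**
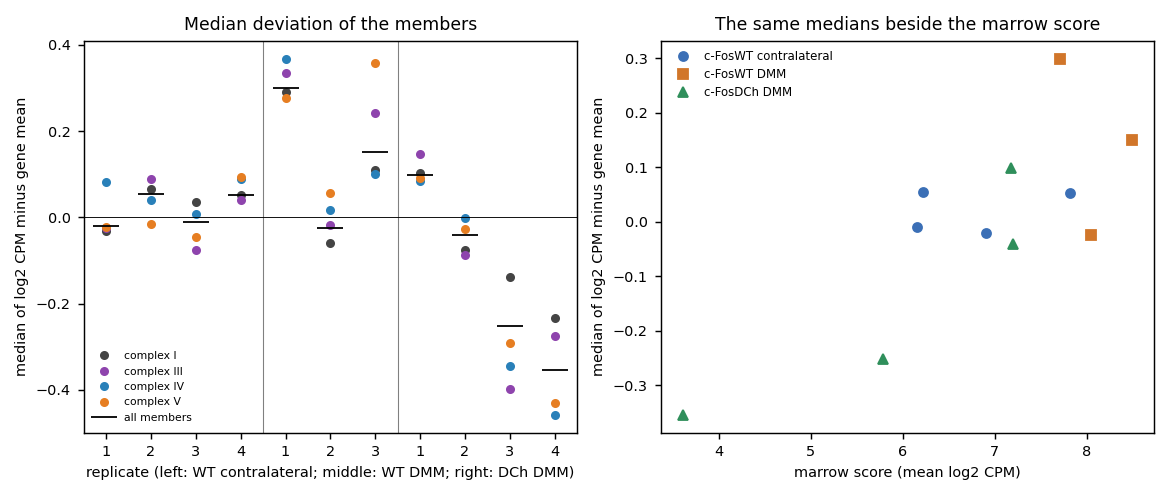
Left: median over members of log2 CPM minus the gene's mean, for each complex (points) and for all members (bars), by library. Right: the all-member median against the marrow score, 1 point per library. The contralateral libraries lie between -0.02 and 0.05, and c-FosDCh DMM replicates 3 and 4 (-0.25 and -0.35) lie at the 2 lowest marrow scores (5.79 and 3.61).

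The muscle forms of complex IV marked single libraries rather than groups. Cox8b was at 11.7 CPM in contralateral replicate 2 and 0.43 to 0.69 CPM in the other 3, at 15.2 CPM in c-FosWT DMM replicate 1 and 1.26 and 0.28 CPM in replicates 2 and 3, and at 5.06 CPM in c-FosDCh DMM replicate 2 and 0.25 to 0.48 CPM in the other 3. Cox7a1 was at 10.1, 12.7 and 3.89 CPM in the same 3 libraries and at 0.69 to 1.83 CPM in the rest. Cox6a2 was at 9.35, 13.4 and 4.13 CPM there and at 0.24 to 1.55 CPM in the rest. The muscle actin gene Acta1 was at 631, 1168 and 314 CPM in these libraries and at 4.53 to 62.5 CPM in the others. None of the 3 forms passed in any comparison. Per kb, the log2 ratio of Cox8b to the common form Cox8a was -0.94 and -0.63 in contralateral replicate 2 and c-FosWT DMM replicate 1, -2.25 in c-FosDCh DMM replicate 2 and -6.40 to -4.24 elsewhere.

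The oxygen-linked isoform ratios separated the groups in another way. Per kb of exon, the log2 ratio of Ndufa4l2 to Ndufa4 was 3.32, 2.90, 3.35 and 1.67 in contralateral, 0.69, -0.56 and 1.00 in c-FosWT DMM and 3.16, 2.74, 4.73 and 5.49 in c-FosDCh DMM libraries. The log2 ratio of Cox4i2 to the common form Cox4i1 was -1.43, -1.83, -1.30 and -2.40, then -3.03, -4.60 and -3.79, then -1.64, -2.22, -0.41 and -0.42 in the same order. For both ratios, c-FosWT DMM libraries lay under all others, and c-FosDCh DMM replicates 3 and 4 lay above all others. Cox4i1 itself was at 160.17, 148 and 193 CPM in c-FosWT DMM and at 168, 133, 106 and 87.6 CPM in c-FosDCh DMM libraries, which overlapped. The log2 ratio of Cox6b2 to Cox6b1 was -5.40 to -4.37 in contralateral, -4.51 to -3.54 in c-FosWT DMM and -5.45 to -4.17 in c-FosDCh DMM libraries.

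**Figure D5:**
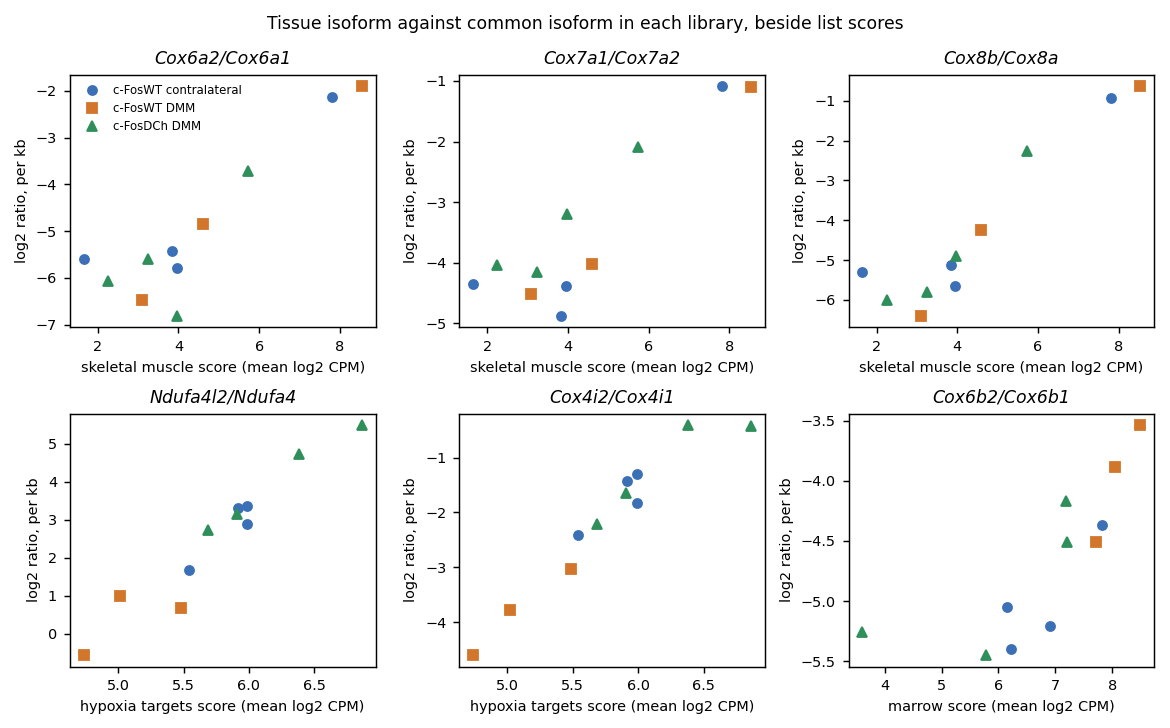
Each panel plots, for the 11 libraries, the log2 ratio per kb of a tissue isoform to its common form (vertical) against a score, the mean log2 CPM of a gene list (horizontal). The muscle forms are high in the libraries of high muscle score. Ndufa4l2/Ndufa4 and Cox4i2/Cox4i1 are lowest in the 3 c-FosWT DMM libraries, which have the lowest hypoxia target scores (4.74 to 5.48).

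Other genes of the pathway, from lists chosen with earlier results of these data known, were read against the members. Between the DMM groups, 2 of the 4 complex II genes were lower in the libraries labelled c-FosDCh: Sdhd (-0.56 ± 0.16) and Sdhc (-0.41 ± 0.12), which anchor succinate dehydrogenase in the membrane (edgeR adjusted p = 0.0429 and 0.0484). Sdha (-0.31 ± 0.11) and Sdhb (-0.34 ± 0.19) did not pass. Of 13 listed mitochondrially encoded respiratory genes 7 were tested and 0 passed, with a median of -0.86. The others, mt-Nd3, mt-Nd4l, mt-Co2, mt-Co3, mt-Atp6 and mt-Atp8, had 0 counts in every library, and the reason was not tested. The list is therefore incomplete here. The gene mt-Co1, for the catalytic subunit of complex IV, was at 1819, 928 and 634 CPM in c-FosWT DMM and at 593, 776, 796 and 1572 CPM in c-FosDCh DMM libraries, a wide overlap. Of 15 complex I assembly genes 0 passed, with 10 positive and a median of 0.05. Among 6 complex III assembly genes 1 was higher, Ttc19 (0.84 ± 0.23, edgeR adjusted p = 0.0418). In the list of 19 tested complex IV assembly genes 2 were lower, Lrpprc (-0.45 ± 0.12), which stabilises mitochondrial mRNAs, and Coa5 (-0.51 ± 0.13), at edgeR adjusted p = 0.0394 and 0.0366. Electron carriers and coenzyme Q synthesis had 1 of 14 higher, Coq10b (1.24 ± 0.31, edgeR adjusted p = 0.0357), a coenzyme Q binding protein, while Cycs, the cytochrome c gene, did not pass (-0.44 ± 0.25). None of 14 regulators of mitochondrial biogenesis passed (median -0.21), among them Ppargc1a at 4.57, 0.92 and 0.83 CPM in c-FosWT DMM and 0.44 to 1.2205 CPM in c-FosDCh DMM libraries, Nrf1 (-0.21 ± 0.11), Gabpa (-0.16 ± 0.08), Esrra (-0.34 ± 0.24) and Tfam (-0.16 ± 0.11). In the other 2 comparisons no gene of any of these lists passed by edgeR.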

How the data were processed

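RNA of knee cartilage was measured in 11 libraries: 4 c-FosWT contralateral, 3 c-FosWT DMM and 4 c-FosDCh DMM. Per the labels' protocols, poly(A) RNA was selected and directional libraries were read as single reads. The tools were STAR 2.6.1a, RSEM, DESeq2 1.22.2 and bcl2fastq 2.19.1.403, and the build GRCm38, per the submitters' processing notes; for the annotation release and strand setting, nothing is given in the sources used here. As deposited by the authors, values are raw counts in the layout that STAR writes. The read classes that are not genes (unmapped, multimapping, no feature, ambiguous) stayed out of library sizes; 33.08 to 43.16% of reads were gene counts. Per library, gene counts were 13593454 to 18280558, and the tested members had a median count of 285.5 to 557, which sets their precision.

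Groups came from the labels, and c-FosDCh DMM libraries were numbered in accession order. Their replicates 1 and 2 carry the same source name, c-FosDCh DMM_1, though different animals are given. Replicates 3 and 4 carry the source names c-FosDCh DMM_2 and c-FosDCh DMM_3. Symbols came from GENCODE M21 (GRCm38), matching all 83 members with the same version; 6 members overlap another gene on the same strand and 27 on the other. With edgeR 4.0.16 in R 4.3.3, filterByExpr kept 18125 genes, and all libraries entered 1 quasi-likelihood fit with TMM and group as the only term. Calls used a two-sided Benjamini-Hochberg adjusted p under 0.05 over all genes. After ± stands the SD of a level or the SE of a log2 fold change. Log2 CPM used a prior count of 2. Alternatives used limma 3.58.1 and DESeq2 1.42.0, other scalings, covariates, left-out libraries and a block for animal. Python 3.11.15, pandas 2.3.3 and matplotlib 3.10.9 made tables and figures. The fit was tested on simulated data. No libraries of a group agree within sampling noise (lowest chi-square per degree of freedom 31.03).

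Members and gene lists were chosen with earlier results of these data known. The 22 lists (276 listed genes) were complex II subunits, mitochondrially encoded respiratory chain, complex I, III and IV assembly, ATP synthase assembly and inhibitor, electron carriers and coenzyme Q synthesis, mitochondrial biogenesis regulators, carriers of ADP and phosphate, hypoxia targets, and markers of 12 cell types or states, among them cartilage, skeletal muscle, erythroid cells and granulocytes. Named genes were the members called in a comparison, or its 5 of smallest p, the 2 highest per kb of each complex, the tissue isoforms with their common forms, fixed core genes, and up to 2 called genes per list; Slc2a1, Egln3, Pdk1 and the members named for their pattern, such as Cox5a, were chosen after their values were seen. The titles give 3 animals with both knees. Deviations of their libraries from the group means correlated at -0.167, -0.177 and 0.254, and the consensus correlation was 0.0012. Where nothing else is stated, p-values measure the spread between these samples. The values of 1 called member are not reported here.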

Additional observations from a re-analysis of the deposited data

Results flagged for a closer look

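In groups of 4 libraries, 82 groups of values were checked for 1 library far from the others; chance flags about 1 in 20, and 8 were flagged. Of these, 6 were muscle forms in c-FosWT contralateral replicate 2, the contralateral library of highest muscle score. On the log2 CPM scale with a prior count of 2, Cox6a2 was at 3.24 there and 0.11 to 0.46 in the other 3 libraries, Cox7a1 at 3.36 against -0.30 to 0.31, and Cox8b at 3.56 against -0.86 to -0.30. The log2 ratios per kb stood apart in the same library: -2.12 (-2.125) for Cox6a2 to Cox6a1, -1.08 for Cox7a1 to Cox7a2 and -0.94 for Cox8b to Cox8a. The core gene Ndufv1 was at 5.97 log2 CPM in the same library and at 5.81 to 5.84 in the other 3, a small gap in a tight group. Ndufs1 was at 6.29 log2 CPM in c-FosDCh DMM replicate 2, the c-FosDCh library of highest muscle score, and at 6.10 to 6.12 in the other 3. The part of muscle RNA in the values of Ndufv1 and Ndufs1 was not tested.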

How the results depend on the processing

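Between the DMM groups, the main analysis called 2 members higher and 6 lower. RLE scaling called 14 lower (813 of all 18125 genes), limma-voom 12 (1320 of 18125), also with animal as a random replicate block, and DESeq2 21 (2369 of 33671); the main analysis called 687 of 18125 lower. Both counts, and the counts over all genes, were 0 with only the 2 groups fitted, without the 2 muscle-rich libraries, without c-FosDCh replicates 3 and 4 (the libraries of highest cartilage score), and with the marrow, muscle, cartilage or hypoxia score as a covariate; the cause was not tested. Leaving out 1 library, with 0 to 4626 calls over all genes, gave 0 to 2 higher and 0 to 29 lower. The members' median was -0.44 with library totals alone, and -0.0026 against contralateral libraries without c-FosDCh replicates 3 and 4. Between DMM and contralateral c-FosWT libraries DESeq2 called 2 higher and 2 lower, and animal as a fixed replicate block over the 3 pairs called 0. The blocks changed no call beyond limma-voom itself.

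In these alternatives 6 values reversed, none of them called in that comparison. With the hypoxia score as a covariate, which was chosen after seeing the data, DMM against contralateral gave -0.0074 for Ndufa4 and -0.0063 for Uqcrfs1, and c-FosDCh DMM against contralateral gave -0.059 for Cox4i2 and -0.010 for Ndufa4l2. Without c-FosDCh replicates 3 and 4 the latter 2 were -0.037 and -0.091.

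With the length of the principal transcript, also chosen after seeing the data, the contralateral shares were 35.7% for complex I, 23.9% for IV and 28.7% for V, and with no length scaling 35.0%, 17.0% and 36.2%. On that length the log2 ratios, in contralateral, c-FosWT DMM and c-FosDCh DMM libraries, were -2.66, -4.72 and -2.085 for Cox4i2 to Cox4i1 and -4.28, -3.25 and -4.12 for Cox6b2 to Cox6b1; for Ndufa4l2 to Ndufa4 they were 1.86 and -0.58 in the first 2 groups. Lengths scale levels alike in all libraries.

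Members of few counts, such as the muscle forms, are limited by depth: the least counted of the tested members had 3 to 52 counts, depending on the library.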
